A study of Mus musculus with 2 samples.

Results

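The 9 genes described here encode structural proteins of central nervous system myelin, namely *Mbp*, *Mog*, *Mag*, *Cnp*, *Mobp*, *Opalin*, *Mal*, *Cldn11* and *Ermn*. They were chosen by name, and all 9 were found once among the 28692 genes of both count matrices. Their transcripts were summed over cells along the oligodendrocyte lineage, which was divided into 6 stages by *Pdgfra*, *Gpr17*, *Enpp6*, *Tmem2*, *Grb14* and *Klk6*, and other cell classes of the same libraries served as the background of free RNA, that is, RNA from broken cells that enters every droplet.

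Cells came from slices of the ventral parafacial region of the brainstem of 10-day-old C57BL6/J mice, and they were captured and counted by droplet single-cell RNA-seq with V2 chemistry. There was 1 untreated library, labelled WT (wild-type), and 1 library from wild-type mice of the same strain injected with 4OH-tamoxifen, the active form of an estrogen receptor ligand used to switch on inducible Cre, at 0.2 mg per day for 3 days, and no transgene is named for either group. Each library pooled 8 mice, 4 of each sex, and the labels place the untreated library in batch 1 and the 4OH-tamoxifen library in batch 2, so treatment and batch cannot be told apart. Each condition was thus a single library, and the conditions could not be tested against each other. Cells are not replicates, and all intervals given are 95% intervals that cover counting error only.

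Myelin is the stack of oligodendrocyte membrane wrapped around axons. As precursors leave the cell cycle and differentiate, they switch on genes for the proteins that fuse the cytoplasmic faces of this membrane, seal its edges and bind it to the axon. The mRNAs of *Mbp* and *Mobp* are carried out of the cell body into the myelin processes, where they are translated.

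The bases before the transcription start are shown for 6 of these genes, *Mog*, *Mag*, *Cnp* and *Cldn11*, which rose as cells gained *Enpp6*, *Mobp*, which rose with *Tmem2*, and *Opalin*, which was called as falling in the last stage. Each line gives the 250 bases before a RefSeq transcription start of GRCm38.p6, 5′ to 3′ on the strand of the gene. Capitals mark 3 motifs on either strand. CTGGCAC is a form of the element bound by MYRF, the transcription factor that drives myelin genes, and reads GTGCCAG on the other strand. A second form of it is CTGGTAC, with GTACCAG as its other strand. ACAAAG is a core bound by SOX factors such as SOX10, and CTTTGT is its other strand.
*Mog*, chr17:37023399-37023648, minus strand: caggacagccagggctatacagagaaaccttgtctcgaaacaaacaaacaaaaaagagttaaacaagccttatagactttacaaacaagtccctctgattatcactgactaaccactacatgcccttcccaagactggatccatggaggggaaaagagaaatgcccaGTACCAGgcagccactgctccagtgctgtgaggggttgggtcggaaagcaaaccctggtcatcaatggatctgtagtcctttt
*Mag*, chr7:30914864-30915113, minus strand: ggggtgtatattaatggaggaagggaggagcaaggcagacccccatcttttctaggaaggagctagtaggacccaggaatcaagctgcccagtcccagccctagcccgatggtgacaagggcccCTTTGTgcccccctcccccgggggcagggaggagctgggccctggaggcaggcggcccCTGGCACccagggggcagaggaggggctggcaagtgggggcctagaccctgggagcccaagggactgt
*Cnp*, chr11:100574689-100574938, plus strand: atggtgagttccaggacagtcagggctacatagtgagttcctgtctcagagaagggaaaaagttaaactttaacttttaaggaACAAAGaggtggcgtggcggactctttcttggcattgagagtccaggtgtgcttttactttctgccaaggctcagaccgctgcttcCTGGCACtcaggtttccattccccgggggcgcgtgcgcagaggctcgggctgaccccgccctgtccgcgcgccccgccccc
*Cldn11*, chr3:31149670-31149919, plus strand: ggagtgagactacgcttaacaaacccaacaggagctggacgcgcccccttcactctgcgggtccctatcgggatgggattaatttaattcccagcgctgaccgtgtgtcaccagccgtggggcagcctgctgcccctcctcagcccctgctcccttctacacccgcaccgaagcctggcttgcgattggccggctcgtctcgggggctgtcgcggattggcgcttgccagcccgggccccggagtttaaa
*Mobp*, chr9:120149492-120149741, plus strand: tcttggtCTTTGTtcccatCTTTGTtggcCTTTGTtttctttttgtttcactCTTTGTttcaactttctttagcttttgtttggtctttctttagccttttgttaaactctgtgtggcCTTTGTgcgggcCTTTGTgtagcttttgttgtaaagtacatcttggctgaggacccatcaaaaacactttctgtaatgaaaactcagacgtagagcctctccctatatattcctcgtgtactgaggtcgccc
*Opalin*, chr19:41077114-41077363, minus strand: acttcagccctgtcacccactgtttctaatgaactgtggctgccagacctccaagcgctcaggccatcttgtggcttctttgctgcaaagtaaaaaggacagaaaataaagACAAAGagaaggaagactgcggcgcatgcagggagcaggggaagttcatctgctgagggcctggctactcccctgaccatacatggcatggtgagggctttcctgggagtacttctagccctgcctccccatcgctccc

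RefSeq promoters were matched for 8 of the 9 genes, and for *Mag*, which has 3 starts there, the one nearest to the annotated gene start was printed. One of the MYRF forms was found before *Mog*, *Mag* and *Cnp*, 3 of the 4 genes that rose into *Enpp6*, and neither form before the other, *Cldn11*, or before *Mobp*, *Opalin*, *Mal* or *Ermn*. Of all 32851 promoter windows of this length, 4.19% hold CTGGCAC, 1.83% hold CTGGTAC and 16.5% hold ACAAAG. The E-box CAGCTG and the TATA box motif TATAAA were found in none of the 8 genes and in 13% and 12.4% of all windows. The window of *Mobp* holds ACAAAG at 6 positions, and those of *Mag*, *Cnp* and *Opalin* at 1 each. No capitals of different motifs overlap in these windows, and a match is a match of letters and not a binding site.

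By the GENCODE vM21 annotation of GRCm38, the build of the deposited counts, the 9 genes are protein-coding and lie on 8 chromosomes, with *Mal* and *Ermn* sharing chromosome 2. The exons of *Cnp* overlap those of *Dnajc7* on the opposite strand, and those of *Ermn* overlap *Galnt5*, also on the opposite strand. Those of *Mobp* overlap the noncoding transcript gene *Gm38642* on the same strand, which counting by strand could not separate and which is not among the genes of the matrix. Whether the counting used strand is not stated in the sources used here. *Dnajc7* had 5088 UMIs in all barcodes against 136639 for *Cnp*, and *Galnt5* had 9 against 9694 for *Ermn*.

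The untreated library had 3767 barcodes and 18496942 UMIs, and the 4OH-tamoxifen library 10241 barcodes and 34704167 UMIs. After filtering, 3339 and 8558 cells were kept, with a median of 3628 and 2411 UMIs, of which 1433 and 4543 belonged to the oligodendrocyte lineage. These formed 7 of 18 clusters, which were built with the 9 genes left out. One of the 7, with *Pdcd4*, *Tmem108* and *Frmd4a* as its leading genes and *Tcf7l2* and *Enpp6* among its first 10, met no cell type name and was kept in the lineage because its detected markers were of precursors and oligodendrocytes. There were 40 barcodes shared by the libraries, and the doublet caller marked 6 untreated and 544 4OH-tamoxifen barcodes.

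Each lineage cell was placed at the latest of the 6 genes of which it held at least 1 UMI, and the cells with *Pdgfra* beside *Grb14* or *Klk6* were left out. The untreated stages held 110, 361, 313, 51, 314 and 139 cells from *Pdgfra* to *Klk6*, and the 4OH-tamoxifen stages 449, 1123, 794, 170, 1107 and 443. Of 4 genes of the second set given below that were not used for this, 3 were highest at the matching stage and *Bmp4* was not. *Cspg4*, a proteoglycan of precursors, was at 241 and 244 UMIs per 1000000 (CPM) in the *Pdgfra* stage of the untreated and 4OH-tamoxifen libraries, *Rras2*, a small GTPase, at 858 and 912 CPM in the *Tmem2* stage, and *Hapln2*, a link protein of the nodal matrix, at 708 and 665 CPM in the *Klk6* stage, each its highest. *Bmp4*, a secreted growth factor, stood for the *Gpr17* stage in that set but was highest at *Enpp6*, at 903 and 678 CPM, against 114 and 231 CPM at *Gpr17*. *Grb14* was widespread outside the lineage, with 1 UMI or more in 16.2% and 14.2% of astrocyte-like cells and in 30.9% and 26.2% of endothelial-like cells. The *Grb14* stage held cells of other lineage clusters too, 143 from the unnamed cluster and 170, 70 and 13 from the 3 clusters named OPC-like (oligodendrocyte precursor-like), beside 502, 351 and 172 from the 3 named oligodendrocyte-like. The *Gpr17* stage held 810 and 202 cells of OPC-like clusters that were placed at *Pdgfra* when stages were taken from the clusters. The OPC-like cluster placed at *Gpr17* gave 421 cells to the *Gpr17* stage and 472 to the *Enpp6* stage. Levels in stages taken from the clusters are given for *Mobp*, *Mag*, *Cldn11*, *Cnp*, *Ermn* and *Opalin*.

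**Figure D1:**
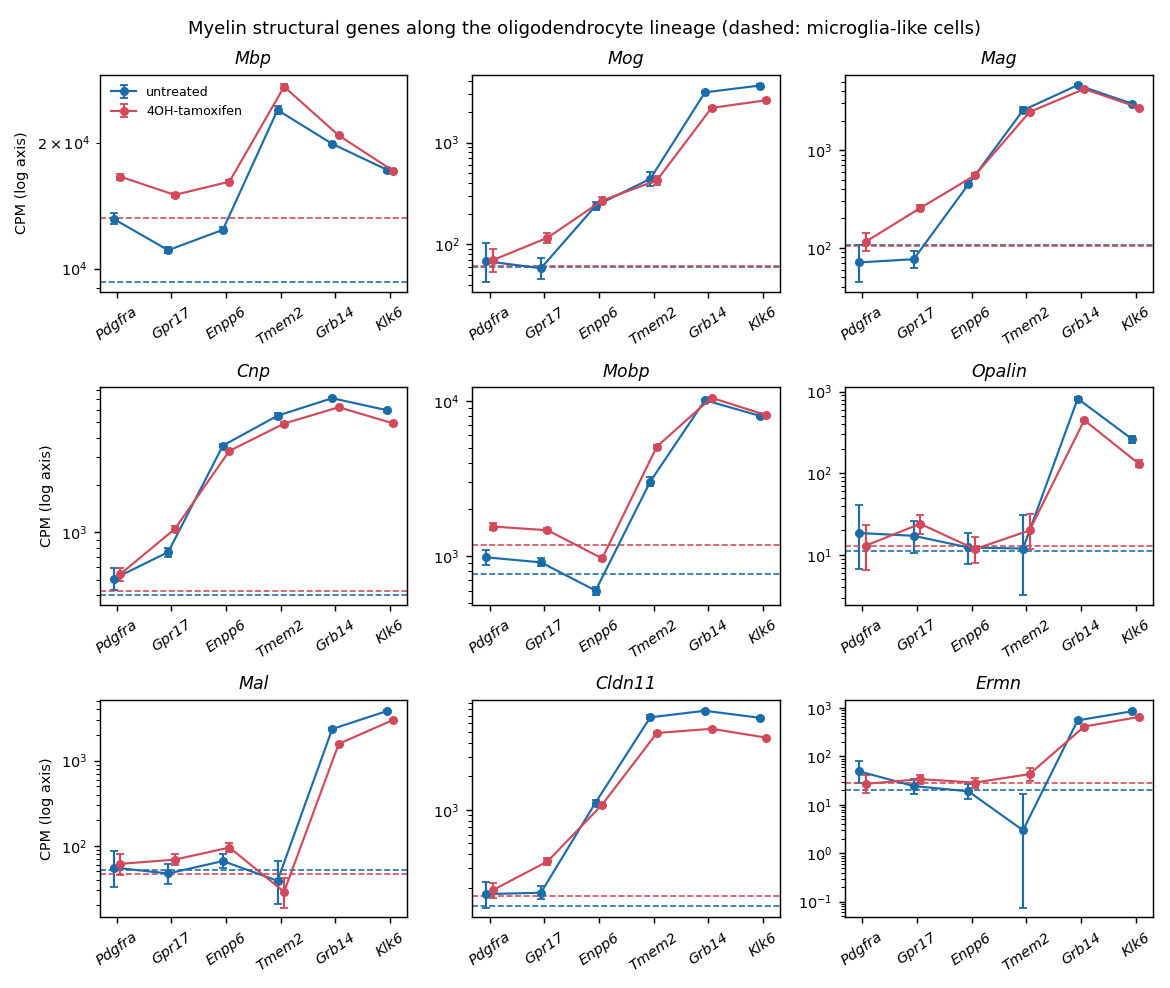
Summed level of each of the 9 genes in CPM (log axis) at the 6 stages, ordered from *Pdgfra* to *Klk6*, in the untreated (blue) and 4OH-tamoxifen (red) libraries. Points are 1 library each, bars are exact Poisson 95% intervals, and dashed lines give the level in microglia-like cells. In CPM, though not in untreated UMIs per cell, *Mbp* peaks at *Tmem2*. *Opalin* stays near the dashed lines until *Grb14* and is lower at *Klk6*, and *Mog*, *Mal* and *Ermn* are highest at *Klk6*.

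*Mbp* and *Mobp* encode proteins of the cytoplasmic face of compact myelin, and *Mbp* product holds its membranes together. *Mbp* was at 13147, 11068, 12379.8, 23918, 19856 and 17220.3 CPM from *Pdgfra* to *Klk6* in the untreated library. In the 4OH-tamoxifen library it was at 16591, 14997, 16128, 27188, 20792 and 17102 CPM. The CPM was highest at the *Tmem2* stage in both libraries and lower at each of the 2 later stages, and already in the *Pdgfra* stage it was over 50% of that peak. Per cell at full depth, *Mbp* held 38.7, 156.9, 185.2 and 198.5 UMIs at *Pdgfra*, *Tmem2*, *Grb14* and *Klk6* in the untreated library. There *Mbp* rose after *Tmem2*, while in the 4OH-tamoxifen library it held 31.3, 144.2, 124.7 and 114.2 UMIs. In stages taken from the clusters the CPM also peaked at *Tmem2*, and the untreated level first passed 50% of that peak at *Enpp6*. In CPM the *Tmem2* stage was at 2.57 and 2.06 times the level in microglia-like cells, where *Mbp* was at 9301 and 13196 CPM, the smallest such ratio of the 9 genes. Per cell at full depth that stage was at 3.89 and 4.17 times the microglia-like value.

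*Mobp* was at 982, 911, 599.7, 3022, 10108 and 8023 CPM along the 6 stages of the untreated library and at 1552, 1468, 967, 5074, 10478 and 8097 CPM along those of the 4OH-tamoxifen library. It was lowest at the *Enpp6* stage, rose 5.04 (4.62 to 5.5) and 5.25 (5.0 to 5.51) times from there to *Tmem2*, and rose again to *Grb14*. Counted per cell at full depth, *Mobp* held 3.09 and 3.42 UMIs in the untreated *Gpr17* and *Enpp6* stages and 3.15 and 3.2 in those of 4OH-tamoxifen, beside 3.35 and 3.07 in microglia-like cells. With every cell thinned to 2000 UMIs, it went from 1.92 to 1.29 and from 2.55 to 1.95 UMIs per cell, so the lower value at *Enpp6* was seen per UMI and not per cell at full depth. In stages taken from the clusters the level at *Tmem2* was higher, 8053 and 9487 CPM, and *Mobp* no longer rose 2-fold from *Tmem2* to *Grb14* in both libraries.

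*Mag*, a sialic acid-binding lectin of the membrane that faces the axon, and *Mog*, an immunoglobulin-domain protein of the outermost myelin surface, did not follow the same time course. *Mag* was at 71, 76.7, 446, 2556, 4621 and 2978 CPM in the untreated library and at 116, 256, 553, 2455, 4220.2 and 2716 CPM in the 4OH-tamoxifen library. It rose 5.73 (5.2 to 6.32) and 4.44 (4.15 to 4.74) times from *Enpp6* to *Tmem2*, was highest at *Grb14*, and at *Klk6* stood at 0.645 (0.623 to 0.666) and 0.643 (0.628 to 0.66) of that. *Mog* was at 68, 57.9, 238, 439, 3124 and 3647 CPM in the untreated and at 69.6, 116, 269, 425, 2195 and 2613 CPM in the 4OH-tamoxifen library. Its 2-fold rises were the one into *Enpp6*, of 4.12 (3.19 to 5.37) and 2.32 (2.02 to 2.68) times, and the one into *Grb14*, of 7.11 (6.04 to 8.43) and 5.17 (4.67 to 5.73) times, and it was highest in the *Klk6* stage of both libraries. In stages taken from the clusters *Mag* was at 4763 and 3822 CPM at *Tmem2*. With the stage genes, *Mag* had at *Tmem2* passed 50% of its highest level, and *Mog* stood at 12% and 16.3% of its own.

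*Cldn11*, the claudin of the tight junctions between myelin layers, and *Cnp*, a cyclic nucleotide phosphodiesterase of the cytoplasm-filled channels of myelin, both rose early, as *Mag* did. *Cldn11* was at 176, 181, 1165, 6753, 7729.8 and 6691 CPM in the untreated and at 191, 345, 1115, 4885, 5326 and 4442 CPM in the 4OH-tamoxifen library. It rose 6.43 (5.6 to 7.42) and 3.23 (2.99 to 3.49) times into *Enpp6* and 5.8 (5.46 to 6.16) and 4.38 (4.18 to 4.59) times into *Tmem2*, and then changed little, by 1.14 and 1.09 times into *Grb14* and 0.866 and 0.834 times into *Klk6*. In stages taken from the clusters its untreated peak moved to *Tmem2*, at 9786 CPM against 8583 CPM at *Grb14*. *Cnp* was at 507, 749.9, 3557, 5509, 7114 and 5967 CPM in the untreated and at 542, 1051, 3292, 4908, 6235 and 4915 CPM in the 4OH-tamoxifen library. With the stage genes, its single rise past 2-fold in both libraries was into *Enpp6*, 4.74 (4.43 to 5.09) and 3.13 (3.0 to 3.28) times. Of the 9 genes *Cnp* was nearest to its peak at that stage apart from *Mbp*, at 50% and 52.8% of it. In stages taken from the clusters *Cnp* already rose past 2-fold into *Gpr17*, from 538 to 2199 CPM in the untreated and from 597 to 1608 CPM in the 4OH-tamoxifen library. It rose past 2-fold again into *Enpp6*, to 4775 and 4125 CPM.

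*Mal*, a proteolipid of membrane rafts, and *Ermn*, an actin-binding protein of the oligodendrocyte cytoskeleton, came last with the stage genes. *Mal* was at 55.6, 47.3, 66.2, 38.9, 2351 and 3819.9 CPM in the untreated and at 61.4, 68.8, 95.4, 28.8, 1578 and 3015 CPM in the 4OH-tamoxifen library. It lay between 28.8 and 95.4 CPM through the *Tmem2* stage, beside 52.2 and 47 CPM in microglia-like cells, then rose 60.5 (35.4 to 114) and 54.7 (37.3 to 83.8) times into *Grb14* and a further 1.62 (1.57 to 1.68) and 1.91 (1.86 to 1.97) times into *Klk6*. *Ermn* was at 49.4, 24.5, 19.1, 2.99, 558 and 859 CPM in the untreated and at 27.1, 34, 28.9, 43.3, 415 and 654 CPM in the 4OH-tamoxifen library. The untreated *Tmem2* stage held 1 UMI of *Ermn* in 51 cells, so the rise of 187 (33.4 to 7373) times into *Grb14* is poorly bounded there, and in the 4OH-tamoxifen library it was 9.6 (7.01 to 13.5) times. In stages taken from the clusters *Ermn* already rose past 2-fold into *Tmem2*, from 12.7 to 46.9 and from 16.6 to 72.1 CPM. The untreated *Tmem2* stage then held 28 UMIs of *Ermn* in 65 cells, and *Ermn* was at 665 and 504 CPM at *Grb14*.

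*Opalin*, a transmembrane glycoprotein of the oligodendrocyte surface, was called as falling at the last step, and no other of the 9 was called as falling at any step at 2-fold on CPM in these stages. *Mal* was called as falling from *Enpp6* to *Tmem2* with cells thinned to 2000 UMIs, from 77.6 and 95.7 to 21.3 and 28.3 CPM on 2 and 9 UMIs at *Tmem2*, and also with at least 2 UMIs of a stage gene or at least 1200 genes per cell. *Opalin* was at 18.5, 17.1, 12.3, 12, 819 and 260.2 CPM in the untreated and at 13, 24, 11.8, 19.97, 446 and 130.5 CPM in the 4OH-tamoxifen library. The first 4 stages lay between 11.8 and 24 CPM, beside the 11.1 and 12.7 CPM of microglia-like cells. *Opalin* then rose 68.5 (26.7 to 251) and 22.4 (14.1 to 37.8) times into *Grb14* and stood at 0.318 (0.286 to 0.353) and 0.292 (0.262 to 0.325) of that level in *Klk6*, still 23.5 and 10.3 times the microglia-like level. In stages from the clusters it was at 1378 and 783 CPM in *Grb14* and 356 and 191 CPM in *Klk6*. Under a second set of stage genes, *Cspg4*, *Bmp4*, *Enpp6*, *Rras2*, *Grb14* and *Hapln2*, *Opalin* fell by 0.81 and 0.80 on the log2 scale into the last stage, under 2-fold in both libraries.

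The steps were then read against all genes. A gene counted as rising or falling when its CPM changed at least 2-fold in the same direction in both libraries, among genes with at least 20 UMIs over the 2 stages in each, and all 9 genes could be counted at every step. From *Pdgfra* to *Gpr17* none of the 9 rose or fell, beside 0.434% of all genes that rose and 0.141% that fell. From *Gpr17* to *Enpp6*, 4 of 9 rose, *Mog*, *Mag*, *Cnp* and *Cldn11*, and 0 fell, beside 3.85% and 9.39% of all genes. From *Enpp6* to *Tmem2*, 3 rose, *Mag*, *Mobp* and *Cldn11*, and 0 fell, beside 4.15% and 6.21%. From *Tmem2* to *Grb14*, 5 rose, *Mog*, *Mobp*, *Opalin*, *Mal* and *Ermn*, and 0 fell, beside 4.44% and 3.5%. From *Grb14* to *Klk6*, 0 rose and 1 fell, *Opalin*, beside 2.25% and 3.76%. *Mbp* passed 2-fold at none of these steps. Over all genes counted, the median log2 change per step lay between -0.23 and 0.01.

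**Figure D2:**
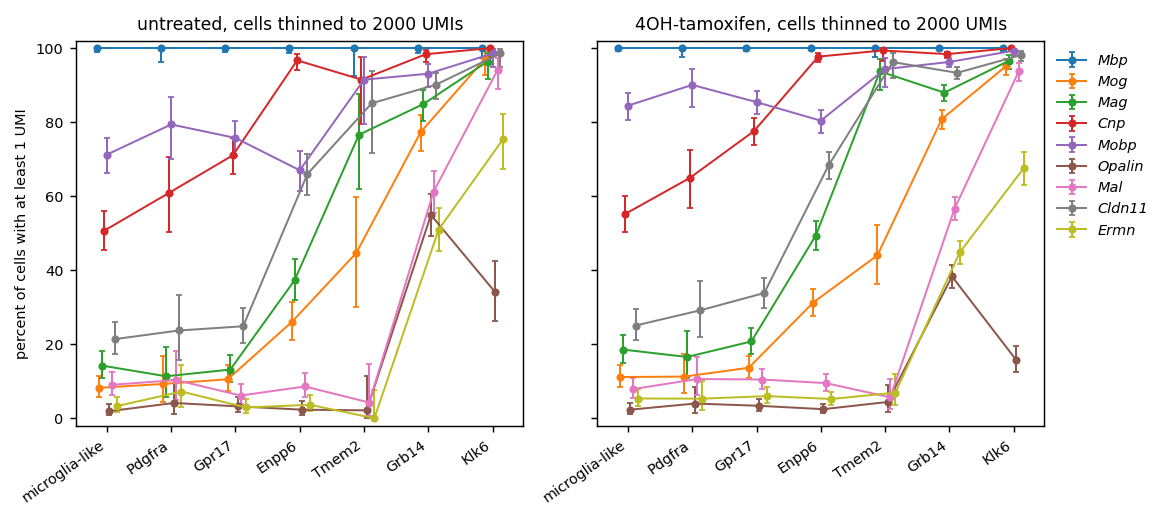
Percent of cells with at least 1 UMI of each of the 9 genes, after every cell was thinned to 2000 UMIs, in microglia-like cells and in the 6 stages of each library. Points are shares of cells of 1 library with exact binomial 95% intervals. *Mbp* is at 100% everywhere, and *Opalin* is the one line that is lower at *Klk6* than at *Grb14* by more than its intervals.

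Depth differed between stages and libraries, from a median of 1778 UMIs per cell in the 4OH-tamoxifen *Pdgfra* stage to 11762 in the untreated *Klk6* stage, so shares of cells were read after each cell was thinned to 2000 UMIs. Shallower cells were left out, between 1 and 19 per untreated stage and, from *Pdgfra* to *Klk6*, 298, 588, 141, 11, 118 and 10 of the 4OH-tamoxifen cells, and 10 and 170 microglia-like cells. *Mbp* was found in 100% of thinned cells of every stage, and also of microglia-like cells, so its presence in a cell carried no information. *Mobp* was found in 71.2% and 84.5% of microglia-like cells and *Cnp* in 50.7% and 55.2%, beside 60.8% and 64.9% of cells of the *Pdgfra* stage. At the other end, *Opalin* was found in 1.92% and 2.32% of microglia-like cells.

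The shares rose in the same order, with *Mag* before *Mal*. In microglia-like cells the thinned shares were 14.2% and 18.6% for *Mag* and 9.04% and 7.89% for *Mal*. *Mag* was in 13.2% and 20.7% of cells at *Gpr17*, 37.3% and 49.3% at *Enpp6* and 76.6% and 93.7% at *Tmem2*. Its shares at *Gpr17* could not be told from those of microglia-like cells, but its level at full depth was 0.718 (0.552 to 0.927) times the microglia-like level in the untreated and 2.42 (2.04 to 2.89) times in the 4OH-tamoxifen library, so the summed level, but not the share of cells, lay above background in the 4OH-tamoxifen library. Beside its OPC-like cells, most of them from the clusters placed at *Pdgfra*, the *Gpr17* stage of both libraries together held 41 cells of the unnamed cluster. It also held 7 and 3 cells of oligodendrocyte-like clusters, and the part of each of these clusters in this level was not tested. In stages from the clusters *Mag* was at 119 and 159 CPM at *Gpr17*, beside 107 and 105 CPM in microglia-like cells. *Mal* was in 4.26% and 5.66% of cells at *Tmem2*, 61.2% and 56.6% at *Grb14* and 94.2% and 93.8% at *Klk6*. The share of *Mal* at *Tmem2*, from 2 of 47 and 9 of 159 thinned cells, was not above that of microglia-like cells and was read as background. *Opalin* was in 54.9% and 38.3% of cells at *Grb14* and in 34.1% and 15.7% at *Klk6*, so its lower level at *Klk6* went with fewer cells that held it. Unthinned, these shares were 63.7% and 49% at *Grb14* and 57.6% and 28% at *Klk6*, and those of *Mal* 66.9% and 59.3% at *Grb14* and 94.2% and 94.8% at *Klk6*. In cells at full depth, the median cell held 5 of the 9 genes at *Enpp6* and 6 at *Tmem2* in both libraries. All 9 genes were found in 54.8% and 39.6% of cells at *Grb14* and in 57.6% and 27.3% at *Klk6*, where the untreated cells were the deeper.

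Outside the lineage the 9 genes were measured as a background, and their number per cell differed little between most classes. The untreated astrocyte-like, microglia-like, endothelial-like, pericyte-like, fibroblast-like and neuron-like cells held 36.1, 47.2, 45, 44, 43.5 and 51.8 UMIs of the 9 genes per cell. In the 4OH-tamoxifen library the same classes held 32.1, 39.8, 37.6, 38.5, 40.3 and 30.6. Cells of the *Pdgfra* and *Gpr17* stages lay in that range, with 44.4 and 44.6 UMIs in the untreated and 36.2 and 39.4 in the 4OH-tamoxifen library. From *Enpp6* on the cells stood above it, reaching 525 and 310.1 UMIs at *Grb14* and 570.2 and 292 at *Klk6*.

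**Figure D3:**
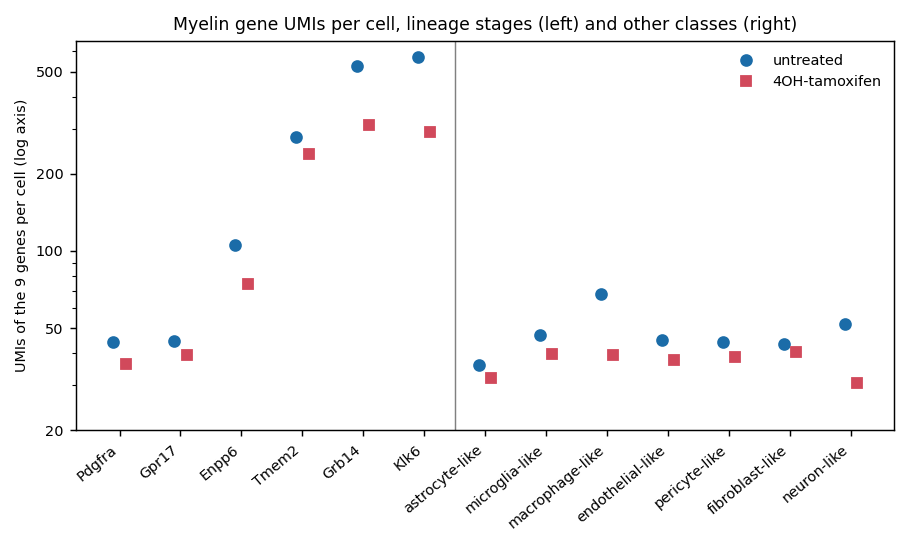
Mean UMIs of the 9 genes together per cell (log axis) in the 6 lineage stages and in 7 other cell classes, for the untreated (circles) and 4OH-tamoxifen (squares) libraries, 1 library per point. The *Pdgfra* and *Gpr17* stages lie level with most classes outside the lineage, between 30.6 and 51.8 UMIs per cell apart from the untreated macrophage-like cells at 68.

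The make-up of these UMIs differed between the other classes and the last 2 stages. *Mbp* made up 85.6% and 86.7% of the UMIs of the 9 genes in microglia-like cells, and 87.2% and 86.6% in the *Pdgfra* stage. In the *Grb14* stage it was 35.3% and 40.2%, and in the *Klk6* stage 34.8% and 39.1%. Put as a ratio, microglia-like cells held 156 and 216 UMIs of *Mbp* per UMI of *Mog*, the *Grb14* stage 6.36 and 9.47 and the *Klk6* stage 4.72 and 6.54. Untreated astrocyte-like and pericyte-like cells held 193 and 185, and the untreated *Pdgfra* and *Gpr17* stages 193 and 191. In the 4OH-tamoxifen library astrocyte-like cells held 202 and the *Pdgfra* stage 238, while the *Gpr17* stage was lower, at 129.7. In other classes the ratio was lower, 35.3 in untreated macrophage-like and 89 in untreated neuron-like cells, and 54 in fibroblast-like and 78 in pericyte-like cells of the 4OH-tamoxifen library, beside 51.9 and 60.01 in the *Enpp6* stage. Counts by gene do not separate the *Mbp* transcripts of myelin from the longer golli transcripts of the same gene.

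**Figure D4:**
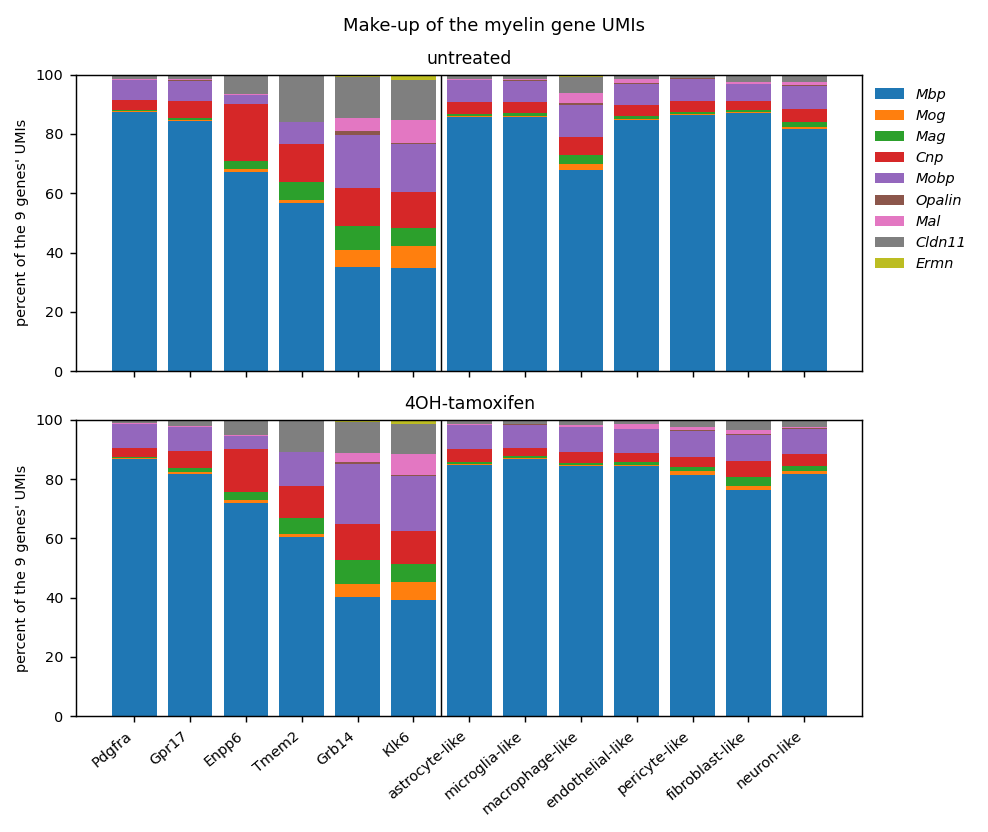
Make-up of the UMIs of the 9 genes, as a percent of their sum, in the 6 lineage stages (left of the line) and 7 other classes (right), for each library. *Mbp* (lowest segment) takes over 75% of the bar in the *Pdgfra* and *Gpr17* stages and in every other class except the untreated macrophage-like cells, and 34.8% to 40.2% at *Grb14* and *Klk6*.

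The make-up was not the same in all of the other classes. For 8 genes in 6 classes, the UMIs per UMI of *Mbp* were compared with those of microglia-like cells of the same library, and in 11 of the 48 combinations the interval lay above 1 in both libraries and in 0 below. All combinations share microglia-like cells and *Mbp* as their reference, and the share of all genes that would pass was not computed. *Mal* in endothelial-like cells was 2.82 (2.17 to 3.69) and 4.58 (3.51 to 6.04) times the microglia-like ratio, at 101 and 121 CPM against 52.2 and 47 in microglia-like cells. The other genes in endothelial-like cells lay below or level with their microglia-like CPM, and *Mal* UMIs were in 36.2% and 34% of these cells at a median of 4171 and 3176 UMIs, against 12.5% and 10.1% of microglia-like cells at 4073 and 2370.0. This cluster carried all 6 endothelial markers and also passed the threshold for all 6 pericyte markers, and the part of pericytes in it was not tested.

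*Cldn11* in fibroblast-like cells was 1.85 (1.35 to 2.51) and 3.24 (2.47 to 4.21) times the microglia-like ratio, from 51 and 58 cells. It did not stand alone in the 4OH-tamoxifen fibroblast-like cells, where *Mal* was 5.2, *Mag* 4.77, *Mog* 4.01, *Ermn* 2.33 (1.0 to 4.83), *Cnp* 2.23 and *Mobp* 1.29 times the ratio. In the untreated fibroblast-like cells the same 6 genes lay between 0.495 (0.243 to 0.909) times for *Mag* and 1.48 (0.807 to 2.54) times for *Mal*. *Cnp* in astrocyte-like cells was 1.11 (1.01 to 1.22) and 1.55 (1.42 to 1.69) times the ratio. In neuron-like cells 7 of the 8 genes, all but *Opalin*, stood above it, by 1.16 to 2.05 times in the untreated and 1.2 to 2.5 times in the 4OH-tamoxifen library. The remaining combination was *Cldn11* in macrophage-like cells, of which the libraries had 26 and 40. The intervals of all 8 genes lay above 1 in the untreated macrophage-like cells, at ratios of 1.95 to 9.11. In those of 4OH-tamoxifen the ratios were 1.04 to 2.34, and the interval lay above 1 for *Cldn11*, 1.59 (1.03 to 2.36), and included 1 for the other 7, with *Opalin* at 2.34 (0.446 to 7.9). *Mobp* was in 23 and *Cnp* in 17 of the 26 untreated cells, and the other 6 genes were in few, with the 13 UMIs of *Opalin* in 2 cells, the 57 of *Mal* in 4, the 34 of *Mog* in 4, the 17 of *Ermn* in 5, the 51 of *Mag* in 6 and the 93 of *Cldn11* in 6.

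A list of 57 related myelin and oligodendrocyte genes was counted in the same way. Of those with enough UMIs, 4 of 44 rose and 0 fell from *Pdgfra* to *Gpr17*, 19 of 53 rose and 1 fell into *Enpp6*, 13 of 52 rose and 5 fell into *Tmem2*, 18 of 57 rose and 4 fell into *Grb14*, and 7 of 57 rose and 7 fell into *Klk6*. The steps of the 9 genes fell inside this sequence. *Myrf*, which encodes the transcription factor named above, was at 6.18, 26.9, 228, 448, 279 and 210.3 CPM in the untreated and at 15.3, 67.1, 253, 486, 293 and 234 CPM in the 4OH-tamoxifen library. It was among the 4 that rose into *Gpr17*, and among the 19 that rose into *Enpp6*. None of the 9 was called at the step into *Gpr17*, but this count depended on the setting. *Mag* stood at 2.21 (1.78 to 2.77) times its *Pdgfra* level there in the 4OH-tamoxifen library and at 1.08 (0.678 to 1.79) times in the untreated. The count was 3 (*Mag*, *Cnp* and *Cldn11*) with at least 2 UMIs of a stage gene, 2 (*Cnp* and *Cldn11*) under the second stage genes, and 1 (*Cnp*) from the clusters, with exactly 1 stage gene or after subtraction of the microglia-like CPM.

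*Nfasc*, an adhesion protein of the paranode, had its peak with that of *Mbp*, at 2977 and 3384 CPM in the *Tmem2* stage against 357 and 442 CPM in *Klk6*. *Mcam*, a cell adhesion molecule, fell into *Klk6* beside *Opalin*, from 168 and 135 to 30.6 and 32.8 CPM. Among the 7 that rose into *Klk6* were *Trf*, an iron carrier, which went from 1722 and 1186 to 4883 and 3747 CPM, and *Gjb1*, a connexin of myelin gap junctions, which went from 344 and 369.6 to 938 and 1009 CPM.

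The genes most like each of the 9 were those with the highest Pearson's r of log2 of CPM plus 10 over the 12 profiles of 6 stages in both libraries, among 5828 genes. These profiles share libraries and neighbouring stages, so r is a description only. For *Mag* the first was *Cldn11* (r = 0.988), the closest pair within the 9, and *Mog* was followed by *Tmem189* and *Enpp2*, with r of 0.988 and 0.987. *Mal* was followed by *Inf2*, *Aspa* and *Evi2a* (r of 0.993, 0.993 and 0.987), *Opalin* by *Wnk1*, *Erbb3* and *Desi1* (0.979, 0.975 and 0.97) and *Cnp* by *Map6d1*, *Card19* and *Shisa4* (0.992, 0.992 and 0.99). *Mobp* was followed by *Ccp110*, *Malat1* and *Efnb3* (0.989, 0.986 and 0.985), *Cldn11* by *Tspan15*, *Tmbim1* and *Mag* (0.988, 0.988 and 0.988), and *Ermn* by *Acap2*, *Ppp1r14a* and *Pdlim2* (0.984, 0.979 and 0.978). *Mbp* stood apart, with *Add1*, *Zfp664* and *Auts2* at 0.949, 0.943 and 0.932 and an r of only 0.17 with *Mal* and 0.18 with *Ermn*.

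Between the libraries, the last 2 stages differed for some of the 9 genes and hardly for others. In the *Grb14* stage *Opalin* was at 819 CPM (95% interval 786 to 852) in the untreated and 446 CPM (95% interval 431 to 463) in the 4OH-tamoxifen library, a ratio of 1.83 (1.74 to 1.94). *Mal*, *Cldn11*, *Mog* and *Ermn* were also higher in the untreated library, with ratios of 1.49 (1.45 to 1.54), 1.45 (1.43 to 1.48), 1.42 (1.39 to 1.46) and 1.34 (1.26 to 1.43). *Mag* and *Cnp* lay at 1.09 (1.07 to 1.12) and 1.14 (1.12 to 1.16), and *Mbp* and *Mobp*, the most abundant in free RNA, at 0.955 (0.946 to 0.964) and 0.965 (0.952 to 0.978). In the *Klk6* stage *Opalin* was again highest, at 1.99 (1.73 to 2.3), followed by *Cldn11* at 1.51 (1.47 to 1.55). *Mog*, *Mal* and *Ermn* were at 1.4, 1.27 and 1.31 there, and *Mbp* and *Mobp* at 1.01 (0.992 to 1.02) and 0.991 (0.97 to 1.01).

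In the earlier stages none of the tested genes reached 1.5-fold higher in the untreated library. In the *Gpr17* stage all 9 ratios were under 1, with *Mag* at 0.3 (0.239 to 0.373), *Mog* at 0.501 (0.381 to 0.652), *Cldn11* at 0.525 (0.45 to 0.609) and *Mobp* at 0.621 (0.58 to 0.664). *Mobp* was lower in the untreated library at *Pdgfra*, *Enpp6* and *Tmem2* too, at 0.633, 0.62 and 0.596, and in microglia-like cells it was at 772 and 1171 CPM. In stages from the clusters the *Gpr17* stage held *Mag* at 119 and 159 CPM and *Mobp* at 813 and 1265 CPM, while *Mog*, at 86.4 and 83.1 CPM, and *Cldn11*, at 398 and 315 CPM, were no longer lower in the untreated library.

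**Figure D5:**
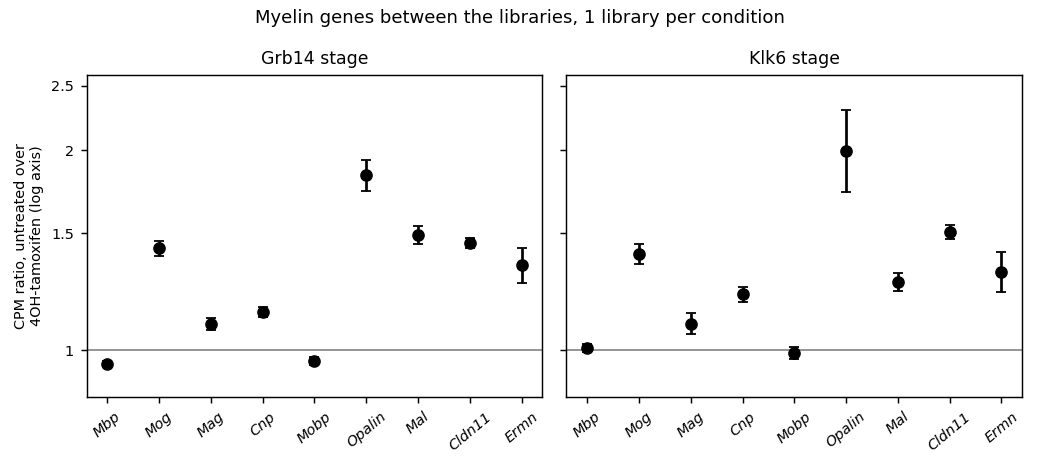
CPM of each of the 9 genes in the untreated library over that in the 4OH-tamoxifen library (log axis) in the *Grb14* and *Klk6* stages, with exact conditional 95% intervals that cover counting error only. *Mbp* and *Mobp* lie between 0.955 and 1.01, and *Opalin* is highest in both panels, at 1.83 and 1.99.

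At a threshold of 1.5-fold, 1 of the 9 genes, *Opalin*, was higher in the untreated library at *Grb14* and 0 were lower, beside 4.08% and 6.63% of all genes with at least 40 UMIs in both libraries together. At *Klk6*, 2 were higher, *Opalin* and *Cldn11*, and 0 lower, beside 4.6% and 6.26%. The call of *Cldn11* at *Klk6*, close to the threshold, was lost with cells thinned to 2000 UMIs, with exactly 1 stage gene, with the cells of both ends kept and with the OPC-like clusters split off. At *Gpr17*, 0 of 9 were higher and 4 lower, *Mog*, *Mag*, *Mobp* and *Cldn11*, beside 9.07% and 6.85%. At *Pdgfra*, 0 of the 7 genes with enough UMIs were higher and 2 lower, *Mag* and *Mobp*, beside 11.6% and 8.29%. At *Enpp6*, 0 of 9 were higher and 2 lower, *Mobp* and *Ermn*, beside 6.63% and 6.64%, and at *Tmem2* 0 of 7 were higher and the same 2 lower, beside 10.7% and 8.36%. The counts of lower genes in these 4 stages each moved under several of the other settings tried. The median ratio of all genes counted was 0.995 and 1.01 in the *Grb14* and *Klk6* stages, against 1.34 and 1.27 over the 9 genes, and 1.05 in the *Gpr17* stage, against 0.688. The untreated cells were deeper, with medians of 9053 and 11762 UMIs in the last 2 stages against 6078 and 6510.0, and the part of depth, of free RNA and of batch in these ratios was not tested. With 1 library per condition, they are differences between 2 libraries and not between treatments.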

How the data were processed

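The deposited files held raw counts of unique molecular identifiers (UMIs, 1 per captured transcript) per gene and barcode for 2 libraries. Per the submitters' processing notes the authors used bcl2fastq 2.18.0.12 and Cell Ranger 2.2.0 with the mm10 build, and the counts had not been normalized. Kept barcodes had 800 genes or more, a mitochondrial share of 20% at most and no more than 50 UMIs of hemoglobin genes, and were not doublets called by Scrublet in scanpy 1.11.5 (0.159% of untreated and 5.31% of 4OH-tamoxifen barcodes). Cells were clustered on 1939 variable genes without the 9 genes, on 25 components with 8 neighbours per library and Leiden resolution 0.7, and named from marker lists. The lists used to set aside cell cycle and stress genes were shorter than those of the study. The unnamed cluster was kept in the lineage by a rule of at least 2 precursor or oligodendrocyte markers, more than of any other class.

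UMIs were summed over the cells of a stage or class and divided by all UMIs of those cells (CPM). Left out were 105 untreated and 264 4OH-tamoxifen lineage cells with *Pdgfra* beside *Grb14* or *Klk6*, and 40 and 193 with no stage gene. Intervals were exact Poisson for CPM, Clopper-Pearson for shares and conditional binomial for ratios (scipy 1.17.1). The calls and intervals were run on simulated data drawn as independent Poisson counts, the model that the intervals assume. This checks the computation only, since the simulated data hold no variation between cells, mice or libraries. The genes named are the 9, the stage genes, the markers, 57 related genes, and for each of the 9 the 3 genes most like it. One gene that this rule names is not reported here. The 9 genes and all lists were chosen with earlier results of these data known. Results were recomputed under 16 other settings, and under 3 more that were chosen after seeing the data.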

Additional observations from a re-analysis of the deposited data

Results flagged for a closer look

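The 9 genes were also found in barcodes that the comparisons did not use. In barcodes with fewer than 800 genes they summed to 18842 CPM (18382 to 19310) in 119 untreated barcodes and to 23604 CPM (23346 to 23863) in 865 4OH-tamoxifen barcodes, above the 10863 and 15219 CPM of microglia-like cells. *Mbp* made up 88.7% and 84.9% of these UMIs, with 236 and 128 UMIs of *Mbp* per UMI of *Mog*.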

How the results depend on the processing

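Of the summary values recomputed under the 19 alternatives, 396 held and 67 moved. No paired analysis was possible because each condition had 1 library and the labels carry no replicate numbers. Requiring at least 2 UMIs of a stage gene gave 3 genes rising from *Pdgfra* to *Gpr17*, 2 from *Gpr17* to *Enpp6*, and 1, *Mal*, falling into *Tmem2*. Requiring exactly 1 of the 6 stage genes left few cells in the *Enpp6*, *Tmem2* and *Klk6* stages. It then gave 5 genes highest at *Grb14* or *Klk6* in place of 8, 1 rising into *Gpr17* and 2 into *Grb14*, and 1 higher and 2 lower in the untreated *Klk6* stage, and it reversed the 4OH-tamoxifen step from *Tmem2* to *Grb14* of *Opalin* (log2 -0.024) and *Ermn* (log2 -0.38). The second set of stage genes gave 2 rising into the *Gpr17* stage's counterpart, and 1 rising and 0 falling into the last. A minimum of 500 genes gave 15449 CPM of the 9 genes in 4OH-tamoxifen microglia-like cells, and of 1200 genes 9989.6 and 12269.5 CPM with *Mal* as the 1 gene falling into *Tmem2*. Classes from marker lists gave 15975 CPM and 7 combinations above the microglia-like ratio in place of 11. Thinning to 2000 UMIs gave 11933 CPM in the untreated library, 1 gene (*Mal*) falling into *Tmem2* and 1 (*Opalin*) higher in the untreated *Klk6* stage. The mean of the CPM of each cell gave 12167 and 16223 CPM and 2 genes higher in the untreated *Grb14* stage, and CPM over the UMIs of other genes 15454 CPM. Subtracting the microglia-like CPM gave 1 gene rising into *Gpr17* and 3 (*Mobp*, *Opalin* and *Ermn*) falling into *Enpp6*. A 1.5-fold threshold gave 1 falling into *Enpp6*, 5 rising and 1 falling into *Tmem2*, and 2 rising and 2 falling into *Klk6*. Of the alternatives chosen after seeing the data, stages from clusters gave 1 gene rising into *Gpr17* and 2 higher in the untreated *Grb14* stage, and keeping the cells with both ends, or splitting off the OPC-like clusters, each gave 1 higher in the untreated *Klk6* stage. The counts between libraries in the first 4 stages moved most. Genes lower in the untreated *Gpr17* stage, 4 as reported, numbered 0 (and 2 higher) with at least 2 UMIs of a stage gene, 8 with at least 1200 genes, 7 with marker-list classes, 2 by the mean of cells, and 1 with stages from clusters or with the OPC-like clusters split off. Those lower at *Pdgfra*, 2 as reported, numbered 1 under the second stage genes, thinning, the mean of cells and the clusters, and 0 with at least 1200 genes, and 1 was higher without doublet removal. Those lower at *Enpp6*, 2 as reported, numbered 4 with at least 2 UMIs, 0 with exactly 1 stage gene, and 1 with doublets at 0.8% per 1000 barcodes, minima of 500 or 1200 genes or resolution 1.4. Those lower at *Tmem2*, 2 as reported, numbered 4 under the second stage genes, 0 with exactly 1 stage gene or thinning, and 1 with doublets at 0.8%, at least 1200 genes, marker-list classes, the mean of cells, the clusters or the split, and those higher numbered 2 with exactly 1 stage gene and 1 with at least 2 UMIs, the clusters or the split. The log2 ratio of the untreated to the 4OH-tamoxifen library reversed at *Gpr17* for *Mog* with at least 2 UMIs (0.15) and from the clusters (0.056), and for *Cldn11* from the clusters (0.33), and at *Tmem2* for *Mobp* with exactly 1 stage gene (0.15). The cause was not tested in any of these.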

Other observations

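Within the *Klk6* stage, cells with and without a UMI of *Opalin* were compared as a description, since they were split on a measured gene. There were 80 and 59 such cells in the untreated library, with a median of 12850 and 10740 UMIs, and 124 and 319 in the 4OH-tamoxifen library, with 7018 and 6358 UMIs. *Klk6*, a serine protease, was at 236 CPM in untreated cells with *Opalin* and 591 CPM in those without, and at 294 and 475 CPM in the 4OH-tamoxifen library. *Hapln2* lay the same way, at 520.2 and 1011 CPM and at 428 and 764 CPM. *Mobp*, *Mog*, *Mag*, *Cnp*, *Mal*, *Cldn11* and *Ermn* were all higher in the cells with *Opalin* in both libraries. *Mobp* was at 8747 against 6858 CPM and at 9577 against 7483 CPM. *Mbp* lay the other way, at 16568 against 18269 CPM and at 16626.5 against 17299.5 CPM.

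Barcodes with at least 800 genes that were removed for their mitochondrial share held 18597 CPM of the 9 genes in 271 untreated barcodes and 10950 CPM in 232 4OH-tamoxifen barcodes. *Mbp* made up 74% and 81.6% of these UMIs, and there were 41.1 and 132 UMIs of *Mbp* per UMI of *Mog*.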
